A study of Homo sapiens with 9 samples.

Results

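The genes described here are those of the proteasome, chosen by name alone: every probe set whose single gene symbol begins with PSMA, PSMB, PSMC, PSMD or PSME and a digit. This gave 34 probe sets for 34 genes, out of 7713 genes with a single-symbol probe set on the array. The rule used no measured value, but it was set with earlier results of these data known. RNA was measured in LAN-5 cells, an established human neuroblastoma line, on 9 Affymetrix 1-colour arrays. The 3 groups, of 3 arrays each, were untreated cells, cells given the astrocyte-derived RAGE ligand S100B, which binds calcium, at 0.5 nM, and cells given it at 5 µM. The design text calls the arrays of a group biological replicates, all from 1 cell line. How long the cells were treated, and whether untreated cells received a vehicle, is not stated in the labels.

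The proteasome is the large protease that degrades proteins tagged with ubiquitin. Its barrel-shaped core particle stacks rings of alpha subunits (PSMA genes) around rings of beta subunits (PSMB genes), some of which carry the active sites. The regulatory particle binds the end of the barrel. Its base holds a ring of ATPases (PSMC genes) that unfolds substrates, and its lid (most PSMD genes) removes ubiquitin. After interferon, the catalytic subunits PSMB5, PSMB6 and PSMB7 can be replaced by PSMB8, PSMB9 and PSMB10, which gives the immunoproteasome, an enzyme known for cutting peptides for antigen presentation. PSME1 and PSME2 form an activator ring that is also interferon-inducible, and PSME3 forms a related nuclear one. When proteasome activity is short, the transcription factor NFE2L1 is known to raise the genes of both particles together through antioxidant response elements.

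By class, the 34 genes comprised 6 alpha subunits, 6 constitutive beta subunits, 3 immunoproteasome beta subunits, 5 ATPases, 3 non-ATPase subunits of the base, 5 lid subunits, 3 chaperones that assemble the base (PSMD5, PSMD9, PSMD10) and the activators PSME1 and PSME3. The last, PSMC3IP, is not a subunit: it encodes a protein of meiotic recombination that binds PSMC3 and carries its name. PSMA6, PSMB6, PSMC5, PSMD6, PSMD7, PSMD13, PSME2 and PSME4 had no single-symbol probe set and were not analysed here. Of the 34 probe sets, 17 end in _s_at, which marks probes shared by several transcripts.

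Promoters of 5 members are shown because they set a constitutive catalytic subunit, PSMB5, against the 3 immunoproteasome subunits and the interferon-inducible activator PSME1. Each is the 250 bases before the annotated start, from RefSeq on GRCh38.p14, read 5′ to 3′ on the gene's strand, with the first start listed where a gene has several. Capitals mark any match, on either strand, to TGACNNNGC (the core of the antioxidant response element), the core of the interferon-stimulated response element (GAAA, any 2 bases, GAAA), TTCNNNGAA (the gamma-activated sequence) or CCAAT.
PSMB5, chr14:23035221-23035470, minus strand: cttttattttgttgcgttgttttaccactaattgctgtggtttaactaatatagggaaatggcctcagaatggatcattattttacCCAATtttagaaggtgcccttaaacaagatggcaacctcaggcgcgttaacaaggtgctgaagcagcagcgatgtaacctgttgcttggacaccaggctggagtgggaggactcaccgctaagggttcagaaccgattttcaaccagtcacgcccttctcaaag
PSMB8, chr6:32844680-32844929, minus strand: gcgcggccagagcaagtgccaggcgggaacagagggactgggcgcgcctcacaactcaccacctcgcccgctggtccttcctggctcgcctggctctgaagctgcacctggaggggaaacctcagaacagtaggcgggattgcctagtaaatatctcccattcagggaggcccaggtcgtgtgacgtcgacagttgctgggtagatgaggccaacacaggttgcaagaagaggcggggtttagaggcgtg
PSMB9, chr6:32853942-32854191, plus strand: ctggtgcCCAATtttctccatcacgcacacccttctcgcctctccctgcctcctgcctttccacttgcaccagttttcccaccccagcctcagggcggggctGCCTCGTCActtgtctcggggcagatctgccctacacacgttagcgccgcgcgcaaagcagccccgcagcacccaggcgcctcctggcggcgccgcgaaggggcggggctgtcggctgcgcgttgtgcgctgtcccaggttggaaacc
PSMB10, chr16:67936851-67937100, minus strand: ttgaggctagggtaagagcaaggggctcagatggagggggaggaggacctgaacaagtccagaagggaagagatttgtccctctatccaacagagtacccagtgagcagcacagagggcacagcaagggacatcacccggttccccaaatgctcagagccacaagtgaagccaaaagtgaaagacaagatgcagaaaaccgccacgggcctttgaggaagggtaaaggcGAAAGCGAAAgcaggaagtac
PSME1, chr14:24135944-24136193, plus strand: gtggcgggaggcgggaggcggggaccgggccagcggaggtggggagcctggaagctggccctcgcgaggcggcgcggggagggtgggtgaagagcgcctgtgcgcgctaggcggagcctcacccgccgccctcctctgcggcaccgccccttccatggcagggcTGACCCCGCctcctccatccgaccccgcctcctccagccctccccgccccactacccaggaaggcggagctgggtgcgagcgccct

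PSMB10 held the interferon-stimulated core close to its start, and PSME1 held 1 just past its start, outside the stretch shown. The PSMB8 stretch held none of the 4 motifs, but the window at its second annotated start held the interferon-stimulated core and the gamma-activated sequence. It overlaps the antisense gene PSMB8-AS1. The other 4 stretches overlap no annotated gene. The PSMB9 stretch, between PSMB9 and the peptide transporter gene TAP1, held a match to the antioxidant core and a CCAAT box. PSMB5 held a CCAAT box, and the window at its other annotated start held the gamma-activated sequence.

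RefSeq promoter windows of 300 bases (250 before and 50 after a start) were found for 30 of the 34 genes, 36 windows in all. The antioxidant core TGACNNNGC lay in 10 of the 36 windows (27.8%), against 13.3% of all 35116 promoter windows. These 10 were PSMA4, PSMB3, PSMB9, PSMC4, PSMD1, PSMD3, PSMD5, PSMD9, PSMD12 and PSME1. The interferon-stimulated core lay in 13.9% of members' windows against 3.57% of all, in PSMA4, PSMB4, PSMB8, PSMB10 and PSME1. The gamma-activated sequence lay in 19.4% against 7.66%, the CCAAT box in 47.2% against 34.6% and the GC box GGGCGG in 63.9% against 45.0%. Another 6 motifs were searched on both strands in the same way. CCGGAAG lay in 25.0% against 10.3%, GCCATNTTG in 11.1% against 2.92%, CACGTG in 8.33% against 7.26%, TATAAA in 8.33% against 11.5%, the heat shock element pair (GAA, any 2 bases, TTC) in 5.56% against 6.71% and TGACTCAGC in 0% against 0.561%. A match is a description of letters, not of a bound site, and several members have more than 1 window.

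Probe sets were compared above an intensity filter that left out the dimmest 1 in 3 probe sets by mean over all 9 arrays. Of the 34 members 32 lay above it, and the 2 below were both immunoproteasome genes, PSMB8 and PSMB9. Of the 12 noradrenergic neuroblastoma markers 11 were measured and 10 lay above the filter, among them PHOX2A, HAND2 and DBH, with TH below it. The mean of the 11 was 9.52 to 9.77 log2 in untreated, 9.73 to 9.75 at 0.5 nM and 9.69 to 9.85 at 5 µM. Of the leukocyte markers 8 were measured. CD2, CD3D, LCP1, CORO1A, LAPTM5 and CD74 lay above the filter, and PTPRC and CD14 lay below it. The mean of the 8 was 6.33 to 6.46 log2 in untreated, 6.30 to 6.36 at 0.5 nM and 6.27 to 6.40 at 5 µM. Mesenchymal markers lay above the filter in 3 of 7, epithelial in 3 of 6 and astrocyte in 1 of 4. A place above the filter was not a test of expression, since signal over background was not assessed. Levels are log2 values of single probe sets, so they are compared between arrays and not between genes. The deposited values were produced with GCRMA, and scanner intensities were not used here.

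No proteasome gene passed the test in any comparison. At 5 µM against untreated, 0 of 32 members had an adjusted p under 0.05 by limma, where 0.292% of all 5830 probe sets did (17), and 0 had an unadjusted p under 0.05, where 6.84% of all did. At 0.5 nM against untreated 0 of 32 passed against 0% of all, and 0 had an unadjusted p under 0.05 against 3.29%. Between the doses 0 of 32 passed against 0.257%, and 0 had an unadjusted p under 0.05 against 4.65%. A test across the 3 groups together called 0 members and 0.24% of all probe sets, with 0 members at an unadjusted p under 0.05 against 4.84%. The smallest adjusted p of a member was 0.74 at 5 µM against untreated.

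The intervals give the precision of each difference in the deposited values, gene by gene, with no allowance for the number of genes. In all 3 comparisons the 95% interval of each of the 32 tested members lay within 1.5-fold in both directions, a bound chosen after the values were seen. Nearly all probe sets met it too: 5763 of the 5830 at 5 µM, 5793 at 0.5 nM and 5770 between the doses. The widest reach downward was that of PSMD1 at 5 µM, to -0.44 log2, and the widest upward that of PSMC3IP at 0.5 nM, to 0.44. The median half-width of the members' intervals was 0.160 log2. The median log2 fold change of the members was -0.02 at 5 µM against untreated, -0.0050 at 0.5 nM against untreated and -0.02 between the doses, where the medians of all probe sets were -0.02, -0.02 and -0.0089. At 5 µM 11 members lay above untreated and 21 below, against 38.1% of all probe sets above. The split was 17 above and 15 below after quantile normalization (50.6% of all above) and 19 above and 13 below after median centring (49.3% of all above). At 0.5 nM against untreated it was 15 above and 17 below, where 40.9% of all lay above. After quantile normalization it was 17 and 15 (49.2% of all above), and after median centring 24 and 8 (56.0% of all above). Between the doses it was 14 above and 18 below, where 45.0% of all lay above, 17 and 15 after quantile normalization (50.3% of all above), and 11 and 21 after median centring (42.7% of all above).

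**Figure D1:**
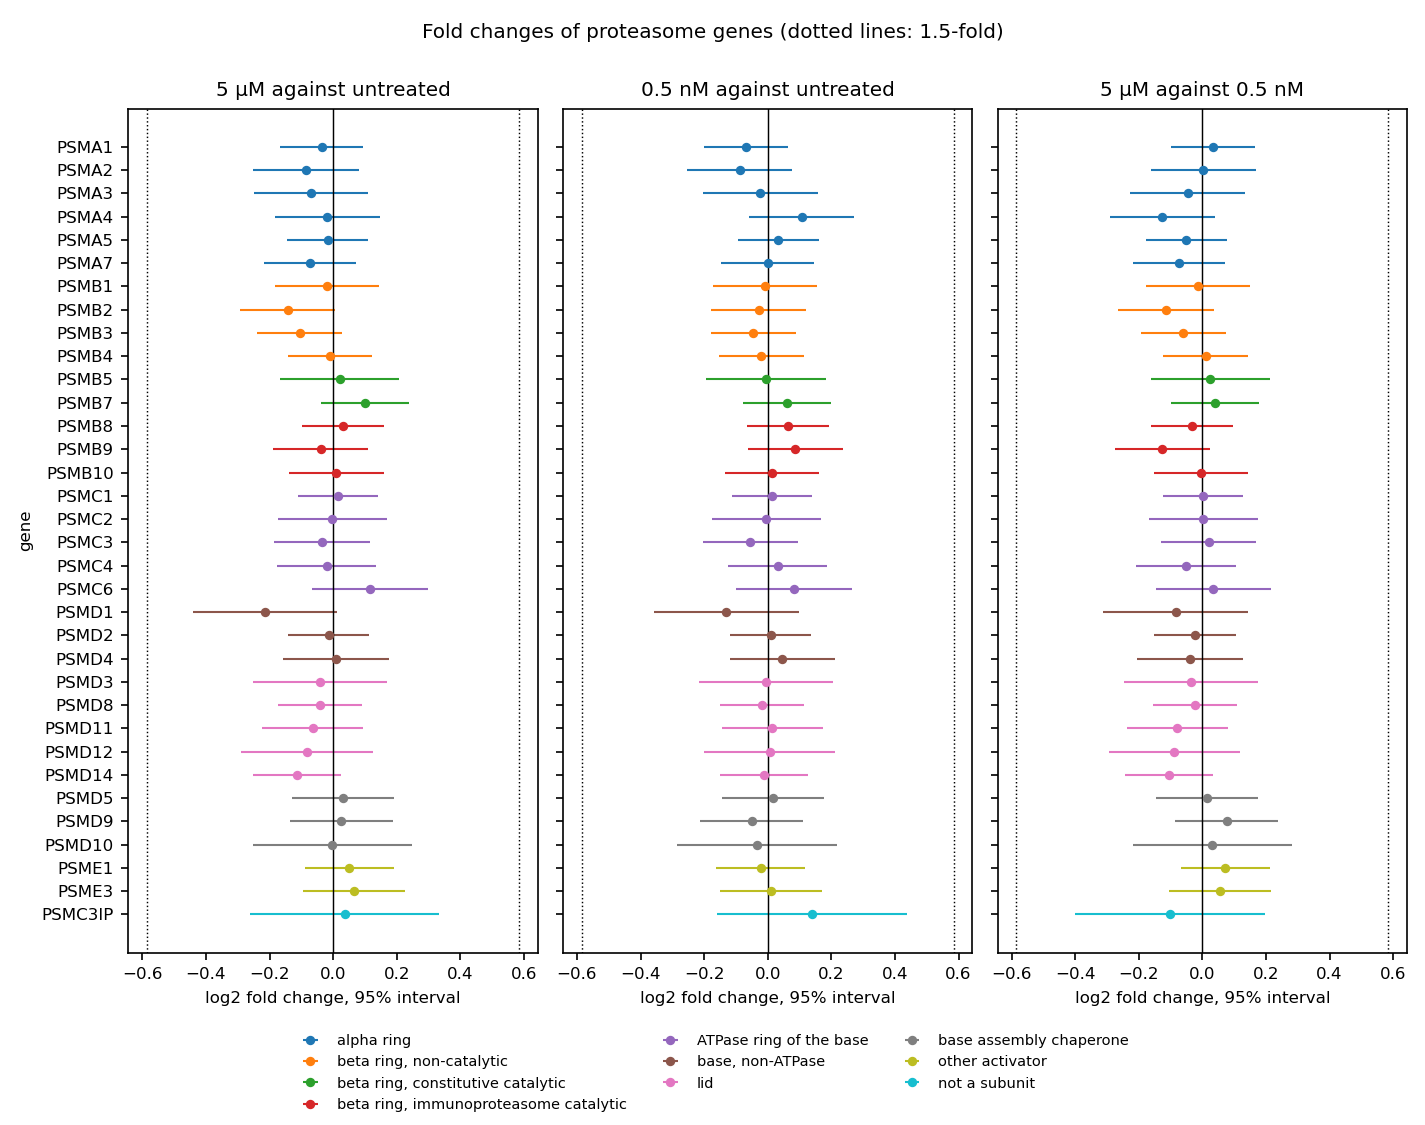
Log2 fold change (horizontal axis) of each of the 34 proteasome genes (rows) in the 3 comparisons, with points as limma estimates, bars as 95% intervals and colours as classes. Every interval lies between the dotted lines at 1.5-fold, and those of PSMB8 and PSMB9 come from the fit without the intensity filter.

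The alpha ring gates entry to the barrel. Its 6 measured genes had a median of -0.05 log2 at 5 µM against untreated, -0.01 at 0.5 nM against untreated and -0.05 between the doses. At 5 µM 6 of 6 lay below untreated, from -0.09 for PSMA2 to -0.02 for PSMA5, but 4 of 6 did after quantile normalization or median centring, 4 of 6 without 5 µM replicate 1, and 5 of 6 without untreated replicate 1, where the median was -0.03. PSMA4 read 10.44, 10.25 and 10.34 log2 in the untreated replicates, 10.59, 10.39 and 10.36 at 0.5 nM, and 10.27, 10.34 and 10.36 at 5 µM. Replicate 1 of the 0.5 nM group was the high array and the groups overlapped. At 0.5 nM PSMA4 differed from untreated by 0.11 ± 0.07 log2 (adjusted p = 0.9999 in limma, SE with n = 3 per group), and from 5 µM it differed by -0.13 ± 0.07 (adjusted p = 0.994). Without 0.5 nM replicate 1 these were 0.03 and -0.05, and without untreated replicate 2 the first was 0.06.

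PSMA2 read 11.27, 11.20 and 11.13 in untreated cells, 11.27, 11.05 and 11.02 at 0.5 nM and 11.16, 11.15 and 11.03 at 5 µM. Both treated groups differed from untreated by -0.09 ± 0.07 and overlapped it. At 0.5 nM this was -0.16 without 0.5 nM replicate 1 and -0.04 to -0.06 without 0.5 nM replicate 2, 0.5 nM replicate 3 or untreated replicate 1. PSMA1 read 10.19, 10.09 and 10.13 untreated, 10.14, 10.11 and 9.96 at 0.5 nM and 10.11, 10.11 and 10.08 at 5 µM. Its difference at 0.5 nM was -0.07 ± 0.06 (SE, n = 3 per group), or -0.01 without 0.5 nM replicate 3 and -0.04 without untreated replicate 1. PSMA7 read 8.58, 8.55 and 8.50 untreated, 8.62, 8.52 and 8.49 at 0.5 nM and 8.42, 8.39 and 8.59 at 5 µM, where replicate 3 was at the level of the highest untreated array and the others lay below them.

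The beta ring forms the chamber in which proteins are cut. Its 6 constitutive genes had medians of -0.02 at 5 µM, -0.01 at 0.5 nM and -0.0011 between the doses. PSMB2, a non-catalytic beta subunit, had the smallest p of any member at 5 µM. It read 11.10, 11.04 and 10.99 log2 in untreated cells, 11.06, 10.99 and 10.99 at 0.5 nM, and 11.0027, 10.93 and 10.76 at 5 µM. Replicate 3 at 5 µM was the low array, and replicate 1 at 5 µM overlapped both other groups. The difference from untreated was -0.14 ± 0.07 (SE, n = 3 per group), with a 95% interval of -0.29 to 0.0065 and limma's adjusted p = 0.74. Without 5 µM replicate 3 it was -0.07. Between the doses PSMB2 differed by -0.11 ± 0.07 (adjusted p = 0.994), or -0.05 without 5 µM replicate 3.

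PSMB3, also non-catalytic, read 11.37, 11.30 and 11.26 untreated, 11.32, 11.26 and 11.21 at 0.5 nM and 11.14, 11.18 and 11.30 at 5 µM. Its difference at 5 µM was -0.11 ± 0.06 (SE, n = 3 per group, adjusted p = 0.785), with 5 µM replicate 3 among the untreated arrays. PSMB1 and PSMB4, the remaining non-catalytic members, lay at -0.02 and -0.0091 in the same comparison.

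The constitutive catalytic subunits and their interferon-induced replacements were each compared between the groups, and not with each other. PSMB6 had no single-symbol probe set. PSMB5, the chymotrypsin-like subunit, read 10.68, 10.56 and 10.59 untreated, 10.77, 10.64 and 10.40 at 0.5 nM and 10.66, 10.62 and 10.62 at 5 µM. The 0.5 nM arrays spanned all others, with an SD of 0.192. At 5 µM PSMB5 differed from untreated by 0.02, with a 95% interval of -0.17 to 0.21. PSMB7, the trypsin-like subunit, read 11.20, 11.01 and 11.19 untreated, 11.19, 11.20 and 11.18 at 0.5 nM and 11.30, 11.23 and 11.17 at 5 µM. Untreated replicate 2 was its low array. PSMB7 differed by 0.10 ± 0.06 at 5 µM (SE, n = 3 per group, adjusted p = 0.81). Without untreated replicate 2 it was 0.04, and without 5 µM replicate 1 it was 0.07.

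PSMB10 was the only immunoproteasome subunit above the filter, with a mean of 6.49 log2, below every array median (6.60 to 6.64). It read 6.47, 6.43 and 6.56 untreated, 6.64, 6.45 and 6.41 at 0.5 nM and 6.48, 6.51 and 6.50 at 5 µM, and the groups overlapped. Its difference from untreated was 0.01 at either dose, with 95% intervals of -0.14 to 0.16 at 5 µM and -0.13 to 0.16 at 0.5 nM.

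PSMB8 read 5.41, 5.56 and 5.56 untreated, 5.50, 5.65 and 5.58 at 0.5 nM and 5.59, 5.48 and 5.55 at 5 µM. PSMB9 read 5.42, 5.42 and 5.41 untreated, 5.42, 5.67 and 5.42 at 0.5 nM and 5.42, 5.34 and 5.37 at 5 µM. On 6 of the 9 arrays it lay within 0.01 log2 of its median of 5.42, and 0.5 nM replicate 2 was its high array. Fitted without the filter, PSMB8 differed from untreated by 0.03 at 5 µM and 0.06 at 0.5 nM, and PSMB9 by -0.04 and 0.09, with adjusted p from 0.929 to 0.979. Whether these dim values follow the transcripts could not be assessed without scanner intensities.

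**Figure D2:**
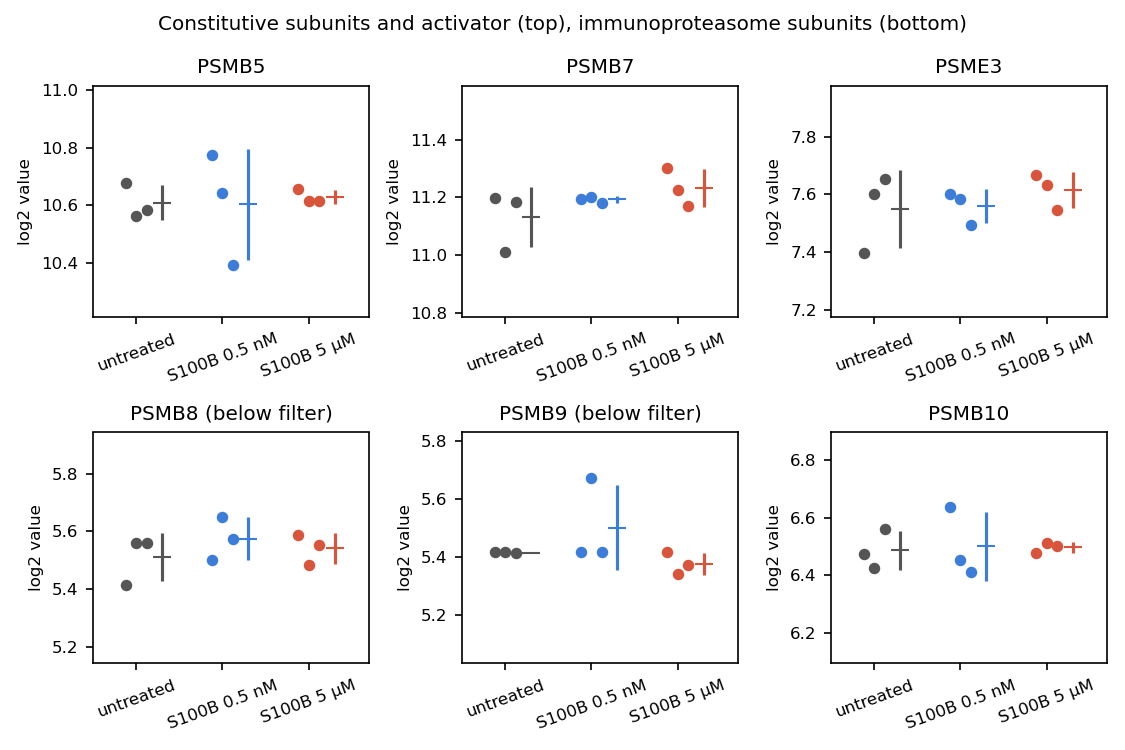
Log2 value (vertical axis, the same 0.8 log2 span in every panel) of PSMB5, PSMB7 and PSME3 (top) and PSMB8, PSMB9 and PSMB10 (bottom) on each array by group (horizontal axis), with the group mean and SD beside the points. The groups overlap in all 6 panels, and PSMB9 lies at 5.41 to 5.42 on 6 of the 9 arrays.

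The activators PSME1 and PSME3 had a median of 0.06 at 5 µM and -0.0062 at 0.5 nM against untreated. PSME1 read 9.74, 9.74 and 9.72 untreated, 9.82, 9.63 and 9.68 at 0.5 nM and 9.74, 9.74 and 9.87 at 5 µM, with 5 µM replicate 3 the high array. It differed by 0.05 ± 0.06 at 5 µM against untreated and 0.07 ± 0.06 between the doses (SE, n = 3 per group, adjusted p = 0.916 and 0.994). Without 5 µM replicate 3 these were 0.0068 and 0.03. PSME3 read 7.40, 7.60 and 7.65 untreated, 7.60, 7.58 and 7.49 at 0.5 nM and 7.67, 7.63 and 7.55 at 5 µM. Untreated replicate 1 was its low array, and its difference at 5 µM was 0.06 ± 0.07, or -0.01 without that array.

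In the regulatory particle 13 genes were tested. Their median was -0.03 at 5 µM, 0.0065 at 0.5 nM and -0.04 between the doses, and 12 constitutive core genes had medians of -0.03, -0.01 and -0.03. The core mean minus the regulatory mean, each gene centred on its 9 arrays, was -0.03, 0.02 and 0.02 log2 in the untreated replicates, 0.01, -0.00072 and -0.02 at 0.5 nM and 0.03, 0.02 and -0.05 at 5 µM. These overlap among the groups, so no shift between the particles stood out beyond the spread of replicates.

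The ATPases of the base, which thread substrates into the core, had a median of -0.0022 at 5 µM. PSMC6 lay highest at 0.12 ± 0.08 (SE, n = 3 per group, adjusted p = 0.827). The other ATPases, PSMC1 to PSMC4, lay between -0.03 and 0.01.

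PSMD1, a scaffold subunit of the base, had the largest difference of any member. It read 10.00, 9.62 and 9.64 untreated, 9.62, 9.52 and 9.72 at 0.5 nM and 9.42, 9.56 and 9.63 at 5 µM. Untreated replicate 1 lay above every other array, while 5 µM replicate 3 overlapped the untreated ones. PSMD1 differed by -0.21 ± 0.10 at 5 µM and by -0.13 ± 0.10 at 0.5 nM against untreated (adjusted p = 0.74 and 0.9999 in limma, SE with n = 3 per group). Without untreated replicate 1 these were -0.09 and -0.0072. That array was also low in the mean of 9 hybridisation controls, with 9.01 log2, where the remaining arrays had 9.48 to 9.86. Its 3′ minus 5′ difference was the lowest for the ACTB control, at -0.16 log2 against -0.11 to 0.14. For the GAPDH control it was 0.26, inside the 0.20 to 0.40 of the other arrays. Within each group ACTB was highest on replicate 3, at 0.11 in untreated, 0.01 at 0.5 nM and 0.14 at 5 µM. The part of these array differences in PSMD1's value or in other members was not tested.

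The lid genes lay below untreated at 5 µM in 5 of 5, from -0.12 to -0.04 log2 with a median of -0.06. Of all probe sets 61.9% lay below. After quantile normalization and after median centring 5 of 5 lay below, with medians of -0.04 and -0.04. Without untreated replicate 1, however, 3 of 5 lay below with a median of -0.0014, against 60.7% of all. Without any other single array 4 or 5 of 5 lay below, with medians of -0.11 to -0.03. PSMD14, the lid's deubiquitinase, was the only member whose arrays did not overlap between groups. It read 10.96, 11.11 and 10.99 in untreated cells, 11.11, 10.96 and 10.96 at 0.5 nM and 10.91, 10.91 and 10.90 at 5 µM. All 3 arrays at 5 µM lay below the other 6, the lowest of which, 1 untreated and 2 at 0.5 nM, all read 10.96. The difference was -0.12 ± 0.06 from untreated and -0.10 ± 0.06 from 0.5 nM (SE with n = 3 in each group, adjusted p in limma = 0.766 and 0.994). They were -0.07 without untreated replicate 2 and -0.05 without 0.5 nM replicate 1, respectively. Such a gap was seen in 1 of 32 members at 5 µM against untreated and 1 of 32 between the doses, against 12.3% and 6.98% of all probe sets, and in 0 of 32 at 0.5 nM against 6.98%. Counted by direction, 1 member lay lower at 5 µM against 9.47% of all and 0 higher against 2.86%. Between the doses 1 lay lower against 4.63% and 0 higher against 2.35%, and at 0.5 nM against untreated 0 lay lower against 5.01% and 0 higher against 1.97%.

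The remaining lid members PSMD3, PSMD8, PSMD11 and PSMD12 lay at -0.04, -0.04, -0.06 and -0.08 at 5 µM, and did not pass. The base chaperones PSMD5, PSMD9 and PSMD10 lay at 0.03, 0.03 and -0.0024. PSMC3IP, the recombination gene, read 6.76, 6.82 and 6.65 untreated, 7.02, 7.0026 and 6.62 at 0.5 nM and 6.63, 6.63 and 7.08 at 5 µM. It had the widest interval of the members at 0.5 nM, -0.16 to 0.44.

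In the deposited values the members went up and down together from array to array within the groups. After the group means were taken out, the median Pearson correlation among pairs of the 32 members over the 9 arrays was 0.472 (496 pairs), against 0.03 among all pairs of tested probe sets. It was 0.479 within the constitutive core, 0.480 within the regulatory particle and 0.483 between them. In the deposited values PSMA3 and the base chaperone PSMD10 were most alike (r = 0.978), then PSMC2 and PSMD10 (0.965) and PSMA1 and PSMB5 (0.957). After quantile normalization these pairs had 0.923, 0.927 and 0.746. PSME3 was least like the rest, with a median r of -0.143 in the deposited values. All pairs share the same 9 arrays, so these are descriptions with no test.

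The highest and lowest arrays for many members were replicates of the same group. Of the 32 members 13 (40.6%) were highest on 0.5 nM replicate 1, where 18.9% of all probe sets were, and 14 (43.8%) were lowest on 0.5 nM replicate 3, where 19.0% of all were. Another 11 were highest on untreated replicate 1 (34.4%, against 13.6% of all). After quantile normalization 10 members were highest on 0.5 nM replicate 1 (10.7% of all were) and 10 on untreated replicate 1 (11.6% of all). The lowest value then fell on 0.5 nM replicate 3 for 7 members (21.9%, against 13.6% of all) and on untreated replicate 2 for 7 (10.5% of all). PSMD10 read 8.83, 8.48 and 8.28 at 0.5 nM, against 8.64, 8.59 and 8.46 untreated and 8.55, 8.57 and 8.57 at 5 µM. PSMA3 read 10.64, 10.38 and 10.30 at 0.5 nM, against 10.51, 10.47 and 10.40 untreated and 10.42, 10.39 and 10.37 at 5 µM. In both the 0.5 nM arrays spanned all the others.

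The mean over members, each centred on its 9 arrays, was 0.11, -0.0099 and -0.08 log2 in the 0.5 nM replicates, 0.07, -0.02 and -0.03 in the untreated replicates and -0.03, -0.03 and 0.0085 at 5 µM. The upper quartile of all probe sets moved with it in the 0.5 nM group, at 8.28, 8.21 and 8.18 log2. In the untreated replicates the quartile varied less, at 8.25, 8.23 and 8.24, and at 5 µM it was 8.18, 8.22 and 8.25. After quantile normalization, which gives all arrays 1 distribution, the 0.5 nM means were 0.05, -0.0062 and -0.03, untreated replicate 1 was at 0.04, and the median correlation was 0.188, against 0.00063 for all pairs. Without 0.5 nM replicate 1 the median correlation in the deposited values was 0.282, and without any other single array it was 0.411 to 0.581. The median SD of the members was 0.07 in untreated cells, 0.10 at 0.5 nM and 0.06 at 5 µM, and 0.06 to 0.07 in each group after quantile normalization.

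**Figure D3:**
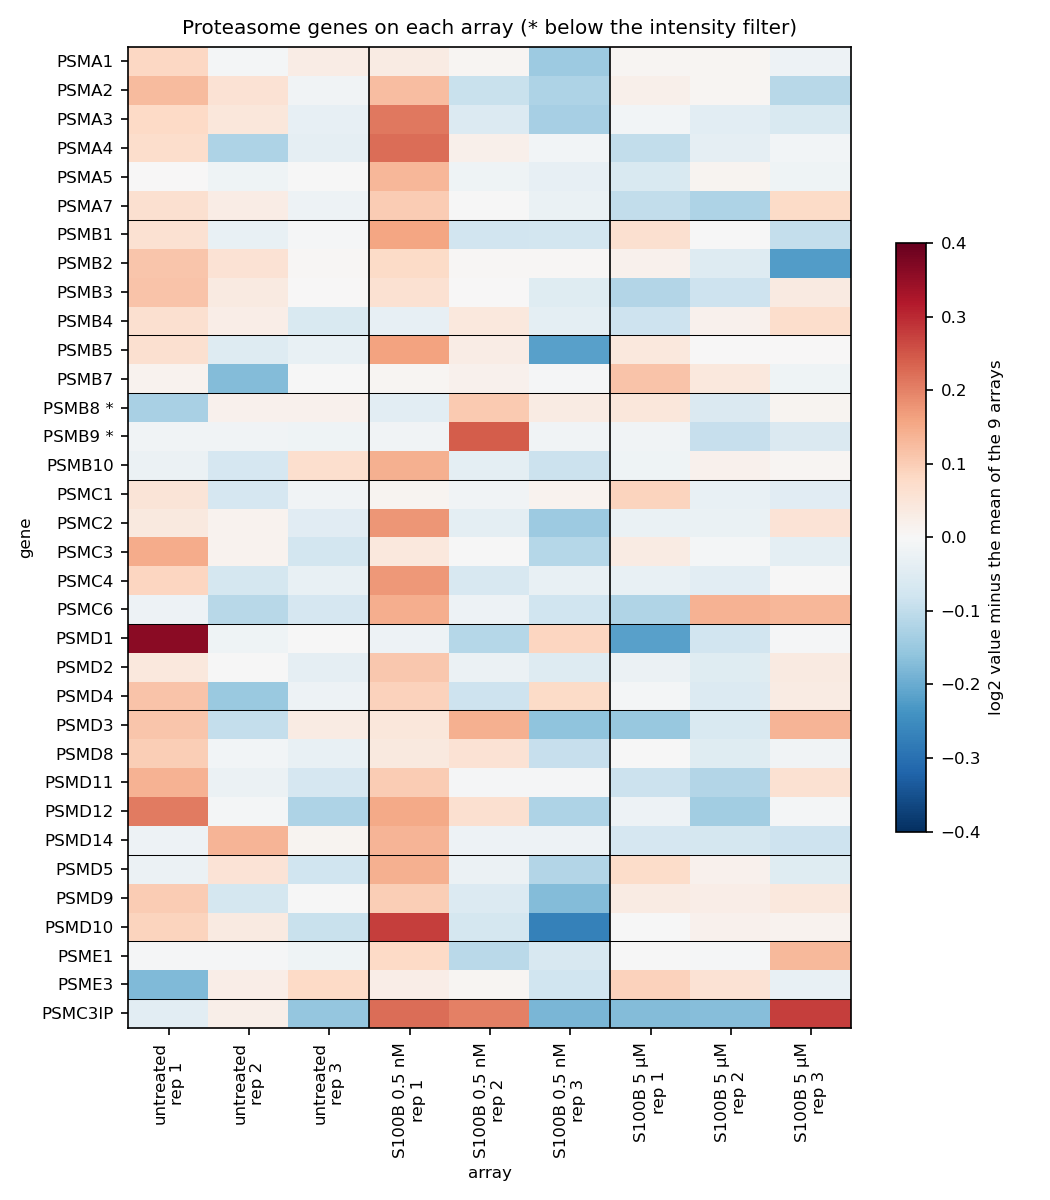
Each of the 34 genes (rows, ruled by class) on each of the 9 arrays (columns), coloured by its log2 value minus its mean over the arrays. Most core and regulatory genes are high on 0.5 nM replicate 1 and untreated replicate 1, and PSMD1 stands out on untreated replicate 1.

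**Figure D4:**
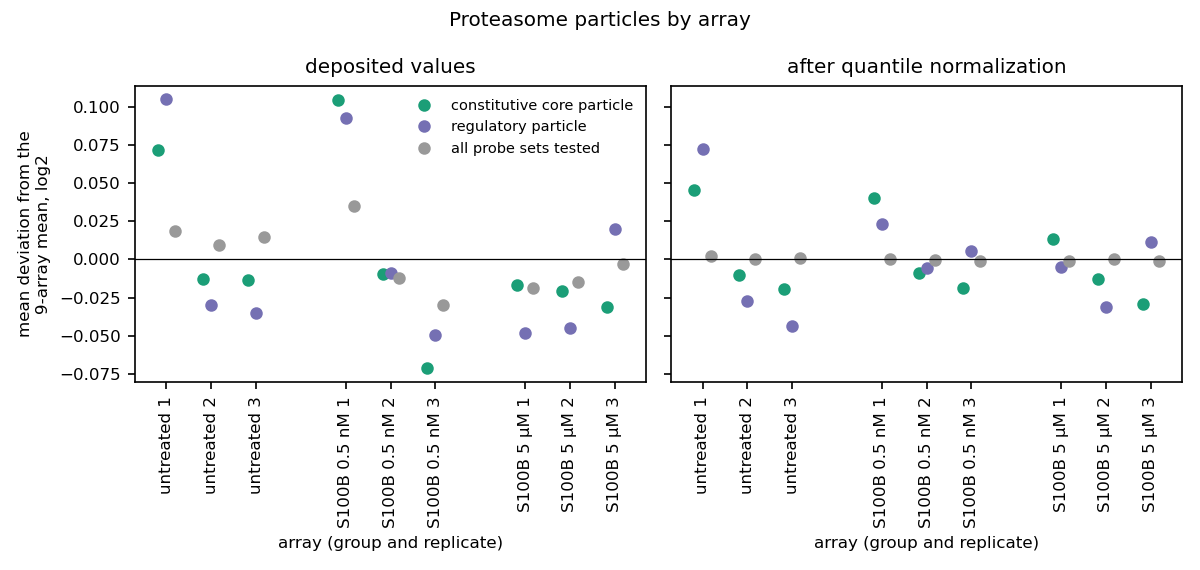
Mean deviation from the 9-array mean in log2 (vertical axis) of the constitutive core particle (12 genes), the regulatory particle (13 genes) and all 5830 tested probe sets on each array (horizontal axis), as deposited (left) and after quantile normalization (right). As deposited, core and regulatory means have the same sign on every array but 5 µM replicate 3 (-0.03 and 0.02), all within 0.11 log2. After normalization their signs differ on 0.5 nM replicate 3 and 5 µM replicate 1 as well.

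Genes around the proteasome were taken from 5 lists of textbook members. None of their tested members rose or fell by limma at an adjusted p under 0.05 in any of the 3 comparisons. Of all probe sets 0.292% did at 5 µM, 0% at 0.5 nM and 0.257% between the doses, so few calls could come from lists of this size. Of the core assembly chaperones and inhibitor 3 of 9 genes were tested, with a median of -0.07 log2 at 5 µM. PSMF1, an inhibitor of the core, lay at -0.16 ± 0.11 and the assembly chaperone PSMG1 at -0.07 ± 0.06 (SE, n = 3 per group), and PSMG2 lay at -0.05 ± 0.06 at 0.5 nM. Of the ubiquitin receptors, deubiquitinases and shuttles 8 of 13 were tested, with a median of -0.04 at 5 µM and 0.0090 at 0.5 nM.

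RAD23B, a shuttle that carries ubiquitinated proteins to the proteasome, read 10.12, 10.26 and 10.12 untreated, 10.16, 10.02 and 9.38 at 0.5 nM and 9.91, 9.93 and 9.53 at 5 µM. Its difference at 5 µM was -0.37 ± 0.18 (SE with n = 3 in each group, adjusted p in limma = 0.74). All 3 arrays at 5 µM lay below the untreated ones, and replicate 3 was the lowest in both treated groups. Arrays at 5 µM did not overlap the untreated ones in 12.3% of all probe sets, and lay lower in 9.47%. USP14, a deubiquitinase bound to the base, lay at -0.08 ± 0.05 at 5 µM and -0.11 ± 0.05 between the doses, with adjusted p of 0.816 and 0.994. UCHL5, another deubiquitinase of the regulatory particle, lay at -0.10 ± 0.07 between the doses, and TXNL1, a proteasome-bound thioredoxin, at -0.07 ± 0.08 at 0.5 nM.

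Of the NFE2L1 pathway regulators 6 of 13 genes were tested, with a median of -0.06 at 5 µM and 0.02 at 0.5 nM. NFE2L1 itself read 8.33, 7.90 and 8.12 untreated, 8.19, 8.24 and 8.18 at 0.5 nM and 8.14, 7.83 and 8.17 at 5 µM, and the groups overlapped. It differed by 0.09 ± 0.11 at 0.5 nM against untreated and by -0.16 ± 0.11 between the doses. Its relative NFE2L2 lay at -0.12 ± 0.14 at 5 µM and -0.16 ± 0.14 at 0.5 nM, and the ubiquitin ligase subunit BTRC at -0.08 ± 0.08 at 5 µM.

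Of the ubiquitin genes and E1 or E2 enzymes 14 of 27 were tested, with medians of 0.0040 at 5 µM and -0.05 at 0.5 nM. At 5 µM 2 of the 14 had an unadjusted p under 0.05, where 6.84% of all probe sets did. Both are E2 enzymes of the anaphase-promoting complex, UBE2C at -0.22 ± 0.07 and UBE2S at -0.25 ± 0.09 (SE with n = 3 in each group, adjusted p in limma = 0.582 and 0.671). UBE2C read 11.07, 11.13 and 11.09 untreated, 11.03, 11.06 and 11.16 at 0.5 nM and 10.85, 10.74 and 11.03 at 5 µM, with all 3 arrays at 5 µM below the untreated ones. UBE2S read 11.56, 11.40 and 11.46 untreated and 11.22, 11.29 and 11.17 at 5 µM, also without overlap. A gap of this kind was seen in 12.3% of all probe sets at 5 µM. The 0.5 nM arrays of UBE2S, at 11.50, 11.57 and 11.19, overlapped both other groups. Between the doses UBE2C alone of the 14 had an unadjusted p under 0.05 (4.65% of all did), at -0.21 ± 0.07 (adjusted p = 0.945). At 0.5 nM UBE2A and UBE2N, E2 enzymes of DNA damage tolerance, lay at -0.09 ± 0.08 and -0.11 ± 0.09.

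Of the antigen processing and interferon genes that accompany the immunoproteasome 10 of 19 were tested, with medians of -0.05 at 5 µM, -0.01 at 0.5 nM and -0.04 between the doses. HLA-E lay at -0.11 ± 0.06 and IFNGR1, a chain of the interferon-gamma receptor, at -0.09 ± 0.07 at 5 µM (SE, n = 3 per group, adjusted p = 0.753 and 0.837). The interferon-induced regulator IRF1 lay at -0.08 ± 0.09 and HLA-C at -0.05 ± 0.06 between the doses. Like PSMB10 and PSME1, none of these passed in either direction, where 0.292%, 0% and 0.257% of all probe sets passed in the same comparisons.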

How the data were processed

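The deposited values, per the labels' protocols, come from biotin-labelled cRNA of total RNA on 9 Affymetrix arrays, and were made with GCRMA, whose version and settings are not stated, per the submitters' processing notes. The deposited values are log2 per probe set; the scale was read from the values (4.37 to 14.5, array medians 6.60 to 6.64). GCRMA may compress differences near background, which bears most on PSMB8 and PSMB9. Signal over background was not assessed, and the number of arrays limits the precision. Of 8793 probe sets, 47 controls and the dimmest 1 in 3 of the rest (means up to 5.95) were left out, leaving 5830. Names come from the platform annotation: 7840 probe sets had 1 symbol, 388 several and 518 none, and the 34 member symbols matched RefSeq.

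Groups came from the sample titles. Limma 3.58.1 in R 4.3.3 (lmFit, eBayes) fitted all 9 arrays with 1 factor of 3 groups, adjusted by Benjamini-Hochberg over 5830 probe sets, and was tested on simulated data. Standard errors and 95% intervals are those of the moderated fit, and an exact permutation test of 3 against 3 cannot go below 0.1. Values on each array are given for the 5 members of smallest p in each comparison, PSMB5, PSMB7 to PSMB10, PSME1 and PSME3, and of each gene list the 2 of smallest p are named. Array values of PSMA3 and PSMD10 (the most alike pair), NFE2L1, RAD23B, UBE2C and UBE2S were added after their values were seen. The members, lists and motifs were chosen with earlier results of these data known. Alternatives were quantile normalization, median centring, no or a stricter filter, an intensity trend, 2-group fits, a replicate block and leaving out each array.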

Additional observations from a re-analysis of the deposited data

How the results depend on the processing

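No member passed under any of the 16 alternatives, with a lowest adjusted p of 0.592 by limma for any member, and 0 members passed with the replicate block in each of the 3 comparisons. Replicate numbers were not treated as pairs in the main fit, and the replicate block was fitted only as an alternative. Of the 9 same-number pairs 4 had deviations that correlated above 0.1, against 4 of 18 other pairs between groups. Same-number pairs ran from -0.00035 to 0.330 (mean 0.151, 8 of 9 above 0). Other pairs ran from -0.367 to 0.348 (mean -0.07, 6 of 18 above 0). The deviations cancel out within a group, so a higher mean of same-number pairs forces a lower mean of other pairs. The means are therefore not separate observations. The pairs among replicate 3 arrays had 0.298, 0.298 and 0.330. In all, 4 of 9 arrays matched their own number best. The members' median stayed between -0.04 and 0.01 log2 at 5 µM, -0.05 and 0.04 at 0.5 nM and -0.06 and 0.02 between the doses. The SD of the members' median between single arrays of a group was 0.06, which is not the error of a difference between groups. Of 34 single-gene results 11 changed sign, with main estimates of up to 0.06 log2 in size (PSME3 at 5 µM). After quantile normalization PSMB5 at 0.5 nM was 0.0070 and PSMB10 between the doses 0.0038. After median centring PSMB5 at 0.5 nM was 0.022 and PSME1 0.0059. Leaving out 1 array gave, at 5 µM, -0.0025 to 0.055 for PSMB5, -0.018 to 0.060 for PSMB8, -0.019 to 0.047 for PSMB10 and -0.012 to 0.12 for PSME3. At 0.5 nM it gave -0.090 to 0.10 for PSMB5, -0.054 to 0.058 for PSMB10, -0.076 to 0.018 for PSME1 and -0.068 to 0.061 for PSME3, and between the doses -0.079 to 0.11 for PSMB5, -0.070 to 0.0033 for PSMB8 and -0.048 to 0.065 for PSMB10.

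The background counts of all probe sets depended on the arrays. At 5 µM the 17 became 7 in a 2-group fit, 6, 8 and 9 without 5 µM replicates 1, 2 and 3, and 4, 7 and 4 without untreated replicates 1, 2 and 3. Between the doses the 15 became 4 in a 2-group fit, 5, 6 and 3 without 0.5 nM replicates 1, 2 and 3, and 8 and 4 without 5 µM replicates 1 and 2. Across the 3 groups the 14 became 5, 3 and 8 without the 5 µM replicates, 9, 9 and 5 without the untreated replicates. Each member gene has 1 probe set, so no choice between probe sets arose, and the co-variation and class alternatives were added after seeing the data.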
